A study of Mus musculus with 10 samples.

Results

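The first 2 h of transcript decay in low IL-3 was described from 4 of the 10 arrays of the series. The 2 arrays of 32Dcl3 cells collected 2 h after the addition of 0.01 ng/ml IL-3 (10 pg/ml) were each set against the 0 h array of the same experiment, experiment 1 or experiment 2. The established mouse myeloid line 32Dcl3 needs interleukin-3 (IL-3), a haematopoietic cytokine, to grow and to stay alive. In every group the cells had been washed free of IL-3 and RNA synthesis was blocked with 10 µg/ml actinomycin D. The titles place the 0 h samples after actinomycin D and their descriptions place them immediately before it, so the labels do not settle which holds. The study's scheme starts time 0 when the IL-3 media were given, after actinomycin D had been added. No IL-3 dose is given for the 0 h samples. The other arrays, also in actinomycin D, came from cells kept for 2 h in high IL-3 (1 ng/ml, or 1000 pg/ml) or for 4 h at either dose. Of the 22690 probe sets of the Affymetrix mouse 430A 2.0 array, the 11856 with a mean signal of at least 50 over the 10 arrays were the members, and they include probe sets of 6792 genes. A probe set is a group of short oligonucleotides against 1 transcript, and its signal is an intensity on a linear scale.

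Actinomycin D intercalates into DNA and stops RNA polymerases, so that the fall of a transcript's signal afterwards reads out its decay. In mammalian cells most decay begins with shortening of the poly(A) tail by deadenylases, followed by decapping or by digestion in the exosome. AU-rich elements (AREs) in the 3′ untranslated region mark many cytokine, transcription factor and signalling mRNAs for rapid decay, and ARE-binding proteins such as those of the Zfp36 family speed this up, whereas mRNAs of ribosomal proteins and metabolic enzymes are usually long-lived. Signals from growth factor receptors can slow the decay of single transcripts. The question addressed here is which transcripts are lost first in low IL-3. A loss in low IL-3 does not by itself show an effect of the dose, and high IL-3 is set beside it below.

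The 4 arrays had median intensities of 50.8 to 70.6, and 11390 to 12155 of their probe sets had a signal of at least 50. With 2 arrays a group the precision is limited. The p-values come from a fit blocked by experiment, which removes the mean difference between the 2 experiments. They rest on how far the changes between groups, over all groups of the series, differed between these experiments on 1 cell line. In limma the spread of each probe set is also drawn toward a trend fitted over all tested probe sets. This trend weighed more than the probe set's own values, with 11.44 prior against 4 residual degrees of freedom. The myeloblast label was checked on 9 marker genes. Of these, 6 had a signal of at least 50 on all 4 arrays, among them the granule protein genes Mpo, Prtn3 and Ctsg, while the granule protease gene Elane and the progenitor genes Kit and Cd34 stayed at or below 31.3. All 3 lymphoid markers were at or below 25.5. Signal of at least 50 on all 4 arrays was also seen for 4 of 7 mature granulocyte, 2 of 5 mast cell, 1 of 4 macrophage and 3 of 6 erythroid and megakaryocyte markers. The summed signal of the myeloblast markers was 12363 and 7728 at 0 h and 12388 and 7713 at 2 h in experiments 1 and 2, so that this sum differed between the experiments and hardly within them. Single markers moved in opposite ways. At 0 h Mpo was at 3409 and 509 but Ms4a3 at 376 and 1242. From 0 to 2 h Csf2rb went from 570 and 765 to 364 and 627, and Il3ra from 331 and 272 to 424 and 392. Gapdh, a glycolytic enzyme often used as a loading control, had 3 probe sets on the array, and the brightest was at 8312 and 9351 at 0 h and at 8311 and 9432 at 2 h.

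Over the first 2 h in low IL-3, 2726 probe sets (23.0% of the 11856 tested) fell and 187 (1.58%) rose at an adjusted p under 0.05 in limma. The falls were between 0.16 and 4.32 on the log2 scale with a median of 0.80, and the probe sets that fell kept a median of 55.1% of their 0 h signal. The rises were between 0.19 and 2.16 on the log2 scale with a median of 0.48. At 2 h in high IL-3 the same fit and threshold gave 2685 falls and 413 rises against the 0 h arrays. All 2726 that fell in low IL-3 were lower in both experiments and all 187 that rose were higher in both. This is no further support, since the probe sets were picked by a test on these same pairs. The arrays were of bulk RNA, in which fewer cells of a type and less RNA per cell cannot be told apart. A signal here is relative to the rest of the array, since the values were normalized between arrays, and the median change of all genes was -0.09 on the log2 scale.

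This median depended on the scaling. It was 0.18 after scaling to a common 75th percentile and 0.08 after quantile normalization, and the 75th percentile of the deposited intensities itself went from 499.8 and 399.3 at 0 h to 399.3 and 336.6 at 2 h. Under the first, 1774 probe sets fell and 4262 rose, and under the second, 1863 fell and 2675 rose, against 2726 and 187 as deposited. The falls of genes named below with a log2 change beyond -0.6 kept their direction and call under both scalings, checked on the probe set first given for each gene. Rises are to be read against the median of all genes. A rise here means a higher normalized signal and is not taken as new transcript. Actinomycin D was given to block RNA synthesis, and how complete the block was in these samples was not tested. The study's methods attribute signals above 0 h at later times to measurement noise. The 2 h array of experiment 2 weighed most: without it 1613 probe sets fell and 12 rose. The rises were 41 without the 0 h array of experiment 2, 66 without the 2 h array of experiment 1 and 292 without the 0 h array of experiment 1. In a fit without the pairing by experiment 338 fell and 0 rose.

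**Figure D1:**
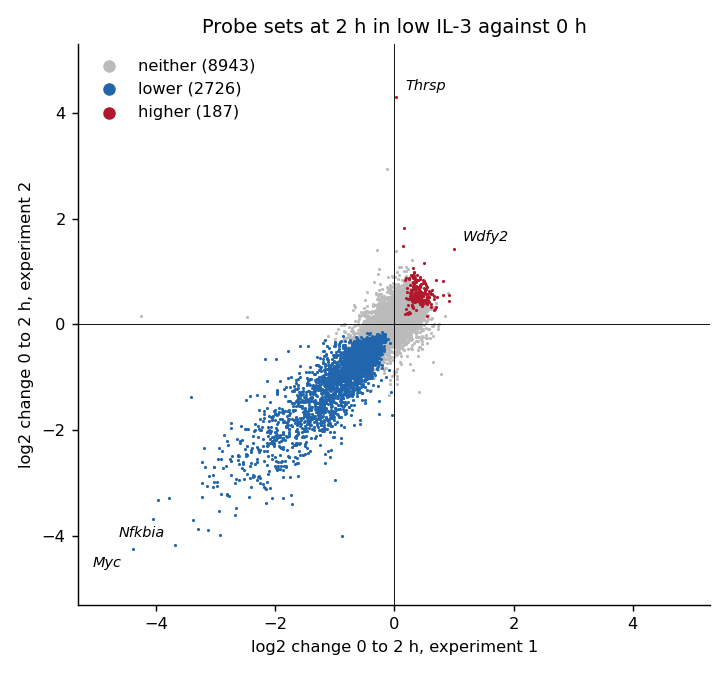
Log2 change from 0 to 2 h in low IL-3 in experiment 1 (x axis) and experiment 2 (y axis), 1 point per probe set, blue for the 2726 that fell, red for the 187 that rose and grey for the others. The falls reach from -0.16 to -4.32 along the diagonal, and the largest rise, of Thrsp, lies near 0 in experiment 1.

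A signal at or below 50% of 0 h in both experiments, which corresponds to an apparent half-life of at most 2 h, was found for 928 probe sets (7.83%) of 734 genes. All 928 were among those that fell. At or below 25% in both experiments were 199 probe sets, at or below 12.5% were 32, and at or below 6.25% were 4. The experiments differed somewhat, with 1041 probe sets at or below 50% in experiment 1 and 1286 in experiment 2. The median over all tested probe sets went the other way, with 93.6% of 0 h in experiment 1 and 97.7% in experiment 2. The log2 changes of both experiments correlated with r = 0.889 across the 11856 probe sets, which share arrays and are no replicates.

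Among the probe sets that passed the filter, fast loss was least frequent in those dimmest and those brightest at 0 h. When the probe sets were ordered by their 0 h signal and divided into 4 groups of 2964, 4.45% of the dimmest group, 12.2% of the next, 10.7% of the third and 3.95% of the brightest were at or below 50% in both experiments. In the dimmest group, with a 0 h signal up to 167, a fall of the same ratio leaves little signal to measure. The filter also shaped this group, since a probe set under 50 at 0 h passed only if later arrays were higher. Its median log2 change was 0.07, and its low share of fast loss is therefore no measure of slower decay. For 86 probe sets the signal went from at least 50 to under 50 in both experiments.

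The 15 genes with the largest falls kept between 3.40% and 14.9% of their 0 h signal. First was Myc, the growth-promoting transcription factor. Its intensity of 1463 in experiment 1 and 1064 in experiment 2 had become 54.7 and 40.9 by 2 h, which left 3.74% and 3.85% (log2 change -4.32 ± 0.19 SE, adjusted p = 2.2e-09). The 0 h and 2 h arrays were far apart and the experiments almost equal, and the apparent half-life from these 2 points was 0.422 and 0.426 h. Such a half-life is an upper bound where part of the 2 h signal is background of the array, and that part was not measured. Its paralog Mycn went from 2208 and 1610 to 147 and 152.

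Second was Nfkbia, which codes for the IκBα inhibitor of NF-κB. One of its probe sets went from 549.1 and 694.5 to 28.3 and 23.6, a log2 change of -3.92 ± 0.20 SE. A brighter one went from 1809 and 1711 to 301 and 241, or 16.6% and 14.1% of 0 h, and the dimmest kept 19.05% and 7.33%, so all 3 fell but by unequal ratios. Dusp2 and Dusp6, phosphatases that switch off MAP kinases, followed. Dusp2 went from 738 and 477 to 29.4 and 22.4, and Dusp6 from 871 and 884 to 69.6 and 53.3.

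Cited2, a transcriptional coregulator that binds CBP and p300, had the highest 0 h signal of these genes' probe sets, 4803 and 4449, and fell to 476 and 290.4 at 2 h (log2 change -3.58 ± 0.18 SE, adjusted p = 5.7e-09). Nrros, a negative regulator of reactive oxygen species, went from 2305 and 2719 to 231 and 327. Both thus kept an intensity over 200 at 2 h, with 9.91% and 6.53% left for Cited2 and 10.03% and 12.01% for Nrros. The circadian and cytokine-regulated repressor Nfil3, the stress-induced mTORC1 inhibitor Sesn2, the DNA repair gene Fancf, the mitotic inhibitor kinase Wee1, the nucleolar dioxygenase gene Riox1, the ubiquitin ligase gene Trim13 and the cytokine signalling suppressor Socs3 completed the 15 largest falls. These 7 kept between 4.28% and 14.9% of 0 h in single experiments, and their adjusted p-values were between 7.6e-09 and 6.6e-08. Second probe sets of Cited2 and Sesn2 fell less, to 27.8% and 15.2% and to 55.9% and 38.1%.

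Gas5, a noncoding RNA gene that hosts small nucleolar RNAs, had the fourth largest fall by 1 of its 4 probe sets. That probe set went from 1001 and 333.1 to 4.89% and 5.65% of these, and a dimmer one from 233 and 143 to 25.2 and 18.4. The other 2, which were the brightest of the gene, went from 4796 and 3223 to 4627 and 3112 and from 3998 and 2627 to 3805 and 2578. Probe sets annotated to Gas5 thus fell into 2 that were nearly lost and 2 that kept 95.2% to 98.1% of 0 h, and which RNA each one detects was not tested.

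**Figure D2:**
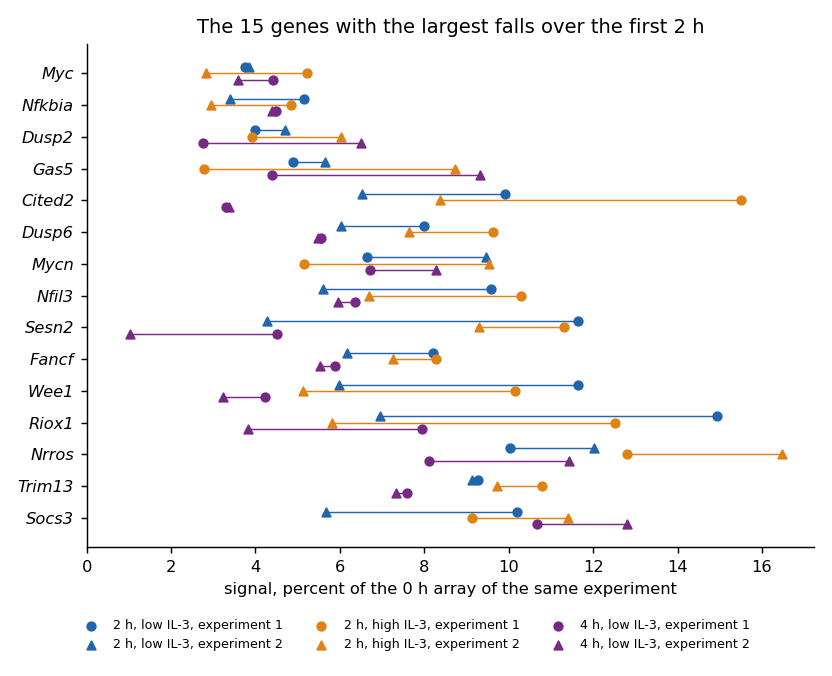
Signal relative to 0 h within each experiment, in percent (x axis), for the probe set of each of the 15 genes with the largest falls, at 2 h in low IL-3 (blue), 2 h in high IL-3 (orange) and 4 h in low IL-3 (purple), circles for experiment 1 and triangles for experiment 2, with a line joining both. At 2 h in low IL-3 every gene is between 3.40% and 14.9%, and Myc, at 3.74% and 3.85%, is at the top.

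Genes were then grouped by role, with 1 probe set per gene, the one with the highest mean signal. Of all 6792 genes, 27.5% fell, 1.47% rose and 9.45% were at or below 50% in both experiments, and the groups below are read against these shares. Counts after scaling to the 75th percentile have another reference: under it 1774 of the 11856 probe sets fell and 4262 rose. Some genes stand in more than 1 group. At 2 h several group medians in high IL-3 were near those in low IL-3. They were -1.47 and -1.42 for immediate early genes and -1.41 and -1.47 for myeloid and haematopoietic transcription factors. For MEK/ERK feedback regulators they were -1.12 and -1.17 and for C2H2 zinc finger genes -0.81 and -0.82. Other groups differed more, such as cytokines and growth factors with -0.32 in high and -0.84 in low IL-3.

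Immediate early genes, which respond to growth factors within minutes, fell in 10 of 14 cases, all 10 to 50% or less in both experiments, with a median log2 change of -1.42. Klf10, a TGF-β-inducible repressor, went from 566 and 327 to 68.5 and 54.7. Junb, an AP-1 subunit, kept 24.5% and 12.2%, and the stress response gene Ier3 43.3% and 47.6%. Among myeloid and haematopoietic transcription factors 21 of 27 fell, with a median of -1.47. Id1, an inhibitor of basic helix-loop-helix factors, kept 11.13% and 11.11%. Gfi1, a repressor needed for neutrophil development, went from 945 and 491 to 140 and 69.4. Cebpa, which drives granulocytic commitment, went from 248 and 821 to 76.5 and 191, so that its 0 h level differed between the experiments while its loss was alike. Gata2 kept 36.9% and 26.5%, and Myb, a progenitor transcription factor, was the slowest of those named here with 62.1% and 51.4%. No member of either group rose.

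Of the feedback regulators of the MEK/ERK pathway, 7 of 10 fell (median -1.17). Besides Dusp2 and Dusp6 these included Spry2, an inhibitor of receptor tyrosine kinase signalling, which went from 503 and 649 to 59.8 and 54.5, and Dusp1, which kept 13.3% and 11.7%. Of the JAK/STAT5 target genes 10 of 14 fell (median -1.08). Cish, a suppressor that STAT5 induces, went from 3177 and 2856 to 723 and 403. Pim1, a STAT5-induced survival kinase, kept 49.6% and 30.6%. Of the NF-κB feedback genes 6 of 9 fell (median -0.88), among them Birc3 and Birc2, which code for the ubiquitin ligases cIAP2 and cIAP1 and kept 27.0% and 32.9%, and 42.9% and 42.2%. Nfkbie, another IκB gene, kept 45.3% and 48.2%. The share that fell in each of these 3 groups was 66.7% or more, against 27.5% of all genes.

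Cytokines and growth factors were measured for 12 genes, of which 7 fell (median -0.84). Il6, an inflammatory cytokine with AREs, went from 787 and 994 to 127 and 169. Hbegf, a ligand of the EGF receptor, went from 935 and 1158 to 309 and 269. Vegfa and Tnfsf11, the RANK ligand, kept 28.5% and 23.5%, and 35.0% and 22.4%. A dimmer probe set of Vegfa kept 101% and 86.1% and did not pass the test. After scaling to the 75th percentile 6 of the 12 fell and 2 rose.

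Of the 13 measured genes of ARE-binding proteins 4 fell, 3 of them of the Zfp36 family, with a group median of -0.02, and after scaling to the 75th percentile 3 fell and 7 rose. Zfp36l2 went from 3455 and 2940 to 459 and 435 (log2 change -2.79 ± 0.18 SE, adjusted p = 3.4e-08). Zfp36l1 kept 44.2% and 43.3%, and Zfp36, which codes for tristetraprolin, kept 41.0% and 19.5% of a 0 h signal of only 118 and 173. The fourth, Tial1, kept 77.3% and 74.6%, and its call was lost on leaving out any of the 4 arrays, with adjusted p-values of 0.069 and 0.062 without the 0 h and of 0.083 and 0.21 without the 2 h array of experiments 1 and 2. Of the other decay factors, those of deadenylation, decapping, the exosome and nonsense-mediated decay, 13 of 30 fell and 1 rose. After scaling to the 75th percentile 11 fell and 8 rose. Fewer than 13 fell whichever of the 4 arrays compared was left out. The antiproliferative Tob2 and Btg1 and the deadenylase subunit Cnot4, all linked to the CCR4-NOT complex, kept 18.8% and 20.9%, 29.0% and 9.61%, and 15.01% and 18.1%. Of the 4 probe sets of Tob2, 2 fell and the dimmer 2 did not pass. The decapping activator Dcp1a went from 491 and 419 to 139 and 76.0. The rise was that of Ddx6, a decapping-associated helicase, from 1036 and 1017 to 1481 and 1544. It was seen in 1 of the gene's 3 probe sets, the others keeping 89.5% to 102.9%, and its adjusted p of 0.002 was 0.074 without the 2 h array of experiment 2.

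Of 36 G2/M and mitosis genes 27 fell with a median of -0.50, and only 4 were at or below 50% in both experiments. Ccnf, which codes for cyclin F, went from 685 and 449 to 77.1 and 34.4, and the mitotic kinase Aurka from 1323 and 1279 to 233 and 157. Plk1, another mitotic kinase, kept 30.7% and 22.2%. Of 33 G1/S and replication genes 17 fell (median -0.29). The fast ones included the origin licensing factors Cdc6, with 17.3% and 16.3% left, and Cdt1, with 33.1% and 17.2%, and Ccne1, which codes for cyclin E1, with 41.9% and 36.6%. E2f8, a repressor of E2F targets in the same group, kept 35.3% and 28.5%. Of the G2/M group, Incenp, a chromosomal passenger gene, kept 48.3% and 28.8%. CDK inhibitors and p53 targets fell in 12 of 18 cases (median -1.01). Cdkn2d (p19) and Cdkn1b (p27) kept 22.9% and 20.9%, and 21.2% and 25.8%. Cdkn1a (p21) went from 2999 and 2661 to 1522 and 811, and Mdm2, the ubiquitin ligase of p53, kept 53.6% and 48.7%. After scaling to the 75th percentile, 14 of the G2/M and 11 of the G1/S genes fell and 2 of each rose, with medians of -0.22 and -0.02, and of the CDK inhibitor and p53 group 11 fell and 2 rose. Fewer G1/S genes and fewer G2/M genes fell whichever of the 4 arrays compared was left out. Both counts were smallest without the 2 h array of experiment 2.

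Of 22 genes of the Bcl2 family, the IAPs and the caspases 10 fell, with a median of -0.26. Mcl1, a short-lived survival factor, went from 3133 and 3604 to 824 and 584. The proapoptotic Bbc3 (Puma) kept 31.2% and 28.4%, and Apaf1, the scaffold of the apoptosome, 42.2% and 41.7%. Targets of ATF4 and amino acid stress fell in 10 of 18 cases (median -0.62). Of these, the mTORC1 inhibitor Ddit4 went from 1992 and 1741 to 373 and 221, the stress factor Ddit3 (CHOP) kept 23.9% and 25.9%, and Cebpg kept 30.1% and 26.5%. C2H2 zinc finger genes, most of them DNA-binding repressors, were the largest of the groups rich in falls: 60 of 93 fell, 38 of them to 50% or less in both experiments, and their median was -0.82. Zfp281 and Zfp830 kept 15.3% and 13.5%, and 16.1% and 15.6%, and Zfp871 and Zbtb25 22.9% and 18.9%, and 22.8% and 17.02%. After scaling to the 75th percentile the counts of falls and rises were 8 and 4 for the Bcl2 family, IAPs and caspases (median 0.0087), 9 and 6 for the ATF4 targets (median -0.34) and 56 and 4 for the zinc finger genes.

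The 8 transcripts of the study's blots all fell, with a median of -1.41. Except for Cdkn1a, the study chose them from a ranking of these arrays by stabilization in high against low IL-3. They are therefore not independent evidence of a direction. Cdkn1a was the study's starting example and was probed as a positive control. Apart from those given, Pik3cd, the catalytic p110δ subunit of PI 3-kinase, went from 982 and 1584 to 363 and 524.

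**Figure D3:**
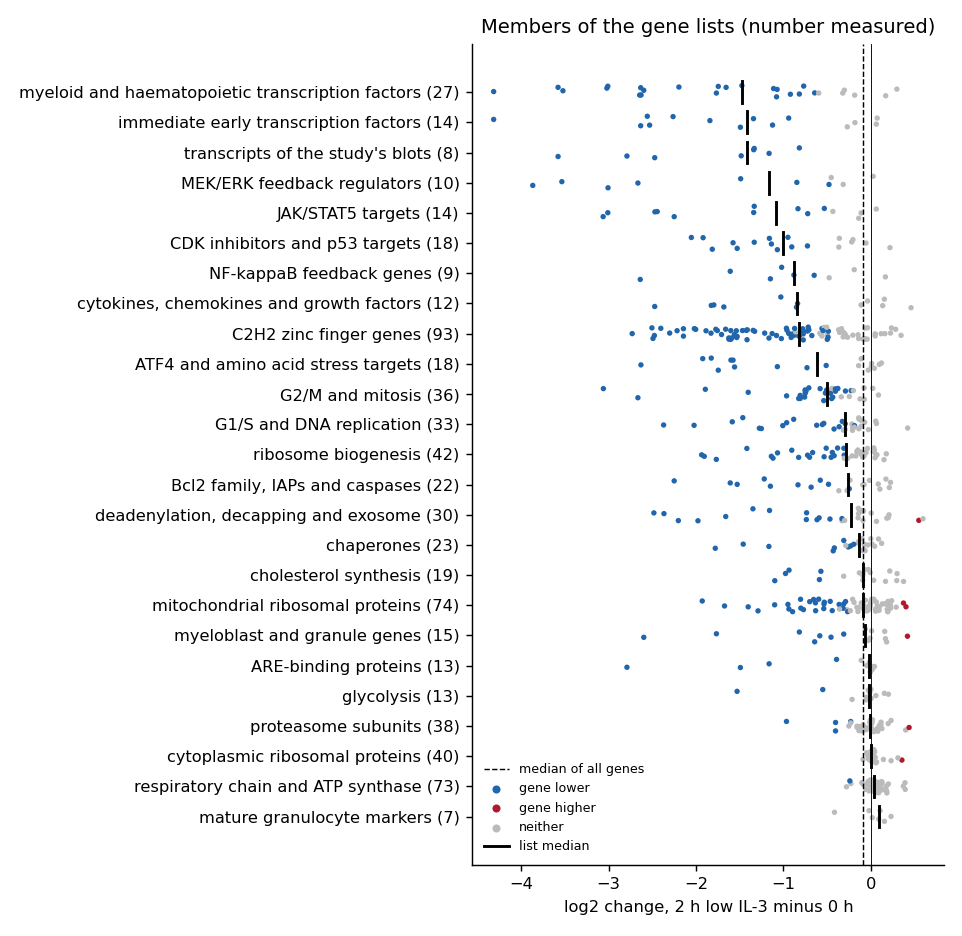
Log2 change from 0 to 2 h in low IL-3 (x axis) of each measured gene of a group (y axis, with the number measured), blue for genes that fell, red for genes that rose and grey for the others, with a black bar at the median of the group and a dashed line at the median of all genes, -0.09. Medians run from -1.47 for myeloid and haematopoietic transcription factors to 0.09 for mature granulocyte markers, and groups of fewer than 7 measured genes are not drawn.

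Of 42 biogenesis genes 20 fell (median -0.28), among them the small-subunit factor Utp3, with 36.2% and 17.9% left, Rrs1, with 36.3% and 17.7%, Wdr43, with 40.9% and 18.9%, and Gnl3, with 48.9% and 27.5%. Of 23 chaperone genes 9 fell (median -0.14), with the DnaJ cofactors Dnajb9 at 36.9% and 21.0%, Dnajb1 at 58.2% and 31.9% and Dnajb4 at 31.1% and 25.6%, and Hspa4, an Hsp70 family gene, at 77.04% and 72.7%, whose call was lost after scaling to the 75th percentile (adjusted p = 0.21). For these 8 genes experiment 2 had the lower value each time. Of 19 genes of cholesterol synthesis 5 fell (26.3%, against 27.5% of all genes). These were the synthesis enzymes Sqle, Hmgcs1, Fdft1 and Msmo1 and the transcription factor Srebf1, with 39.1% to 71.8% left. Of these, the call of Srebf1 was lost without the 2 h array of experiment 2 (adjusted p = 0.13) or the 0 h array of experiment 1 (0.051). After scaling to the 75th percentile 12 biogenesis genes fell and 6 rose, 3 chaperone genes fell and 5 rose, and 5 genes of cholesterol synthesis fell and 7 rose, with medians of -0.0014, 0.15 and 0.19. The 20 biogenesis and 9 chaperone genes that fell were 12 and 4 without the 2 h array of experiment 2 and 13 and 5 without that of experiment 1, and the chaperone genes 5 without the 0 h array of experiment 2.

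By limma 0 of 40 cytoplasmic ribosomal protein genes fell (1 at an unadjusted p under 0.05) and 1, Rpl14, rose, and the median was 0.01 on the log2 scale. Rps6, Rps27l and Rpl7 changed by 0.31, 0.07 and 0.05 and Rps28 and Rps29 by -0.09 and -0.05, with adjusted p-values of 0.074 to 0.44. Of 73 genes of the respiratory chain and ATP synthase 1 fell, Uqcrfs1, with 87.6% and 81.9% left (median of the group 0.04). Ndufs1, Ndufs7 and Ndufb3 of complex I were at -0.28, -0.23 and -0.10 and Ndufb7 and Ndufa9 both at 0.18, with adjusted p-values of 0.077 to 0.50. Of 38 proteasome genes 4 fell, Psmd5, Psmc6, Psmd12 and Psma2, and 1, Psmd9, rose (median -0.01). Of 13 glycolytic genes 2 fell, both at the entry of the pathway: Hk2, a hexokinase, kept 32.0% and 35.3% and Pfkp, a phosphofructokinase, 69.9% and 66.5%. Hk1 and Pkm were at -0.21 and -0.05 without passing. Of 74 mitochondrial ribosomal protein genes 26 fell (35.1%, against 27.5% of all genes) and 2, Mrpl11 and Mrpl48, rose, but 11 fell without the 2 h array of experiment 2. Mrps2 and Mrpl32 kept 42.9% and 31.7%, and 58.2% and 45.3%, Mrpl44 kept 29.6% and 30.0% and Mrps31 31.8% and 19.1%, while the log2 median of the group was -0.08. After scaling to the 75th percentile the respiratory chain and the ribosomal protein genes rose instead, in 67 of 73 and 37 of 40 cases. So did 21 of 38 proteasome and 8 of 13 glycolytic genes. Of the 74 mitochondrial ribosomal protein genes 28 rose and 17 fell. Under that scaling 4262 of all 11856 probe sets rose and 1774 fell. Leaving out the 2 h array of experiment 2 ended the calls of Rpl14 (adjusted p = 0.22), Uqcrfs1 (0.45), Psmc6 (0.06), Psmd12 (0.17), Psma2 (0.32), Psmd9 (0.35), Mrpl11 (0.19) and Mrpl48 (0.18), that of the 0 h array of experiment 2 those of Rpl14 (0.45), Uqcrfs1 (0.11), Psma2 (0.079), Psmd9 (0.088), Mrpl11 (0.077) and Mrpl48 (0.29), that of the 0 h array of experiment 1 those of Uqcrfs1 (0.15), Psmd12 (0.065), Psma2 (0.09), Psmd9 (0.14) and Mrpl11 (0.056), and that of the 2 h array of experiment 1 those of Rpl14 (0.21), Uqcrfs1 (0.056), Psmd9 (0.087), Mrpl11 (0.066) and Mrpl48 (0.24). The calls of Rpl14, Uqcrfs1, Psmd9 and Mrpl48 were also lost without either 4 h high array, at 0.050 to 0.069.

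By limma 0 of 7 mature granulocyte and 0 of 5 erythroid and megakaryocyte markers passed the test, with 1 of each at an unadjusted p under 0.05, and of 4 measured mast cell and 4 macrophage markers 1 each fell, Gata2 and the Fc receptor gene Fcgr1. Of 15 myeloblast and granule genes 7 fell (46.7%, against 27.5% of all genes) and 1 rose, with a median of -0.06, while 4 fell and 7 rose after scaling to the 75th percentile (median 0.22) and 3 fell without the 2 h array of experiment 2. That scaling gave 0 falls and 3 rises among the 7 mature granulocyte markers, 1 and 2 among the 4 mast cell, 0 and 2 among the 4 macrophage and 0 and 2 among the 5 erythroid and megakaryocyte markers. In log2 changes as deposited, the neutrophil genes Cxcr2 and Ngp were at -0.41 and -0.02 and Ltf and S100a8 at 0.23 and 0.16, and the mast cell genes Cpa3, Mcpt8 and Fcer1a at -0.05, 0.46 and 0.25. The macrophage genes Adgre1, Cd68 and Csf1r were at -0.04, 0.43 and 0.03, and Tfrc, Itga2b, Gata1, Pf4 and Gp9 at -0.13, -0.07, -0.09, 0.40 and 0.37. None of these passed, with adjusted p-values of 0.052 to 0.96. The falls include Gfi1, Cebpa and Myb as given above and Csf2rb2, a β subunit of the IL-3 receptor, with 72.8% and 60.5% left. The rise was that of Il3ra, the α subunit of the same receptor, from 331 and 272.3 to 424 and 392. Without the 2 h array of experiment 2 the adjusted p was 0.10 for Csf2rb2, 0.30 for Il3ra and 0.32 for Fcgr1. The calls of Il3ra and Fcgr1 were lost without any other of the 4 arrays too, at 0.08 to 0.20 and 0.095 to 0.11, and that of Il3ra without either 4 h high array, at 0.064.

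The rule of naming also takes from each group the members with the smallest p in the direction opposite to most of its calls. Of these Ddx6, Il3ra, Mrpl11, Mrpl48 and Psmd9 passed, as given above, and the others did not. In log2 changes, the immediate early genes Fosl2 and Nr4a2 were at 0.08 and 0.07, the ARE-binding protein genes Celf1 and Elavl1 at 0.04 and 0.03, and Upf1, the helicase of nonsense-mediated decay, at 0.60. The last went from 16.7 and 40.7 to 21.3 and 98.4, with an adjusted p of 0.051. Of the signalling genes, the chemokines Ccl3 and Ccl9 were at 0.46 and 0.14, Etv5 at 0.03, the IL-2 receptor gene Il2ra at 0.06 and Nfkbiz at 0.17, and of the transcription factors Runx1 was at 0.30 and Klf3 at 0.17.

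Of the cell cycle genes, Cdk6 and Rfc5 were at 0.42 and 0.07, Cdc25b and Cenpa at 0.09 and 0.02 and the p53 target Zmat3 at 0.22. The proapoptotic Diablo and Bad were at 0.23 and 0.21, the stress targets Slc7a5 and Atf5 at 0.12 and 0.10 and the sterol enzymes Hsd17b7 and Mvd at 0.38 and 0.30. Bop1 and Rrp12 of ribosome biogenesis were at 0.18 and 0.15, the glycolytic Aldoa and Pfkm at 0.16 and 0.20, the chaperones Cct5 and Dnajb6 at 0.09 and 0.13, Nkg7 at 0.16, Zfp991 and Zfp931 at 0.35 and 0.24, and the proteasome gene Psma8 at 0.40. Their adjusted p-values were between 0.097 and 0.86. After scaling to the 75th percentile some passed as rises, such as Diablo (0.0011), Pf4 (0.0012), Zfp991 (0.0015) and Upf1 (0.013). Without the 0 h array of experiment 1 calls of rises were gained by Upf1 (0.022), Diablo (0.045), Psma8 (0.039), Pf4 (0.002), Gp9 (0.049) and S100a8 (0.042), without that of experiment 2 by Aldoa (0.011) and without the 2 h array of experiment 1 by Upf1 (0.028). Without either 2 h high array Mcpt8 (0.030 and 0.033), Pf4 (both 0.045) and Ndufb7 (0.048 and 0.047) were gained, and without either 4 h high array Upf1 (0.046 and 0.0495).

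Of the 187 probe sets that rose, 37 had a 0 h mean under 100, and among those with at least 100 in both 0 h arrays the largest log2 change was 0.65. Wdfy2, an endosomal protein gene, rose in both experiments, from 138 and 82.6 to 290.0 and 250.3 (log2 change 1.21 ± 0.19 SE, adjusted p = 0.00012). Thrsp, a regulator of lipid synthesis, had the largest fitted rise and went from 4.65 and 8.43 to 5.14 and 463, so that 1 array carried it. Its adjusted p of 0.039 was 0.99 without that array, 0.22 without the 0 h array of experiment 2 and 0.089 and 0.088 without either 4 h low array. Ociad1, an endosomal protein gene, went from 97.2 and 3.21 to 110.6 and 52.1, and Rnf141, a RING finger gene, from 164 and 67.2 to 182 and 217, so that both moved mainly in experiment 2. They were lost without its 2 h array (adjusted p = 0.22 and 0.23), its 0 h array (0.72 and 0.69) or either 4 h low array (0.055 to 0.06). Eif4ebp2, a translation repressor gene, went from 26.5 and 39.2 to 43.9 and 107.8, and Tlr9, a nucleic acid sensor gene, from 32.3 and 42.8 to 69.0 and 87.6. They were lost without the 2 h array of experiment 2 (0.16 and 0.18), Eif4ebp2 also without its 0 h array (0.18) and Tlr9 without the 0 h array of experiment 1 (0.11). The brightest probe sets of Ociad1, Rnf141 and Eif4ebp2 kept 96.3% and 102%, 93.1% and 112%, and 87.2% and 98.6% of 0 h and did not pass.

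Whether the dose of IL-3 already mattered after 2 h was asked by setting the 2 h arrays in low IL-3 against those in high IL-3. Only 7 probe sets (0.0590%) were lower in low IL-3 and 0 were higher by limma, while 522 and 346 had an unadjusted p under 0.05. Over all 11856 probe sets 97.7% differed by less than 0.5 on the log2 scale, and the 95% interval of a difference extended a median of 0.32 to either side, so smaller differences were not excluded. Il6 was at 127 and 169 in low and at 400.0 and 493 in high IL-3 at 2 h (log2 difference -1.50 ± 0.14 SE, adjusted p = 0.00018). In percent of 0 h this was 16.1% and 16.98% against 50.8% and 49.6%. The experiments were close.

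Hbegf was called by both of its probe sets. The brighter was at 309 and 269 in low and 840 and 674 in high IL-3 (-1.34 ± 0.15 SE, adjusted p = 0.0015), and the dimmer at 49.9 and 56.2 against 192 and 154 (-1.45 ± 0.20 SE). Zfp36l2 was at 459 and 435 against 1588 and 783 (-1.29 ± 0.18 SE, adjusted p = 0.0077), and Pik3cd at 363 and 524 against 813 and 886 (-0.94 ± 0.14 SE, adjusted p = 0.014). For all of these and for Il6 the low and high arrays did not overlap, which is no further support, since the probe sets were picked by this difference. The others were Xiap, an inhibitor of caspases, at 199.6 and 91.9 against 354.5 and 282, and 4921524J17Rik, at 148 and 114 against 425 and 225, both with an adjusted p of 0.042. The Xiap signal is that of 1 of its 3 probe sets, and the other 2 were 0.42 and 0.38 higher in low than in high IL-3 on the log2 scale without passing. The other 2 probe sets of Pik3cd differed by -1.11 and -0.99 (adjusted p = 0.053 and 0.07).

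The 5 genes with the smallest p in the other direction did not pass. Pik3c3, which codes for the class III PI 3-kinase, was 0.89 higher in low IL-3 on the log2 scale (95% interval 0.53 to 1.24, adjusted p = 0.07), and Thrap3, a splicing and transcription cofactor, 0.80 higher by 1 probe set (0.46 to 1.14, adjusted p = 0.098), while its other 2 differed by 0.12 and -0.51. Hspb1, a small heat shock protein gene, was at 237 and 147 in low and 130 and 77.4 in high IL-3, a difference of 0.80 (0.45 to 1.14). Smarcad1, a chromatin remodeller gene, was at 329 and 848 against 249.5 and 244, a difference of 1.06 (0.59 to 1.52), and Fam160b1 at 222 and 251 against 147.5 and 101.8, a difference of 0.86 (0.48 to 1.24), all 3 with an adjusted p of 0.11. Without the 2 h high array of experiment 1 Pik3c3 (0.014), Smarcad1 (0.00092) and Fam160b1 (0.016) were called higher, Pik3c3 also without either 0 h array (0.043 and 0.039) and with Gapdh scaling (0.032), Thrap3 without the 0 h array (0.046) or the 2 h high array (0.028) of experiment 2, and Smarcad1 without the 2 h low array of experiment 1 (0.014) and with Gapdh scaling (0.039). Of the other transcripts of the study's blots, Cdkn1a differed by -0.65 (-0.94 to -0.36), Zfp36l1 by -0.63 (-0.95 to -0.31), Pim1 by -0.46 (-0.80 to -0.12) and Cited2 by -0.48 (-0.88 to -0.09), with adjusted p-values of 0.11 to 0.63 over all probe sets. The count of 7 was 222 without the 2 h high array of experiment 2, 18 without either 0 h array, 2 without either 4 h low array (Il6 and the brighter probe set of Hbegf), 2 after scaling to the 75th percentile and 0 in a fit without the pairing by experiment. The count of 0 higher was 14 and 11 without the 2 h high array of experiment 1 or 2. Xiap was at 0.59 and Pik3cd at 0.10 without the 2 h low array of experiment 2, Pik3cd at 0.073 and 4921524J17Rik at 0.11 without that of experiment 1, and the dimmer Hbegf probe set at 0.066, Pik3cd at 0.12 and 4921524J17Rik at 0.31 without the 2 h high array of experiment 1. Cdkn1a was called without either 0 h array (0.025 and 0.022) or the 2 h low array of experiment 1 (0.024), and Zfp36l1 without the 2 h high array of experiment 2 (0.0058).

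**Figure D4:**
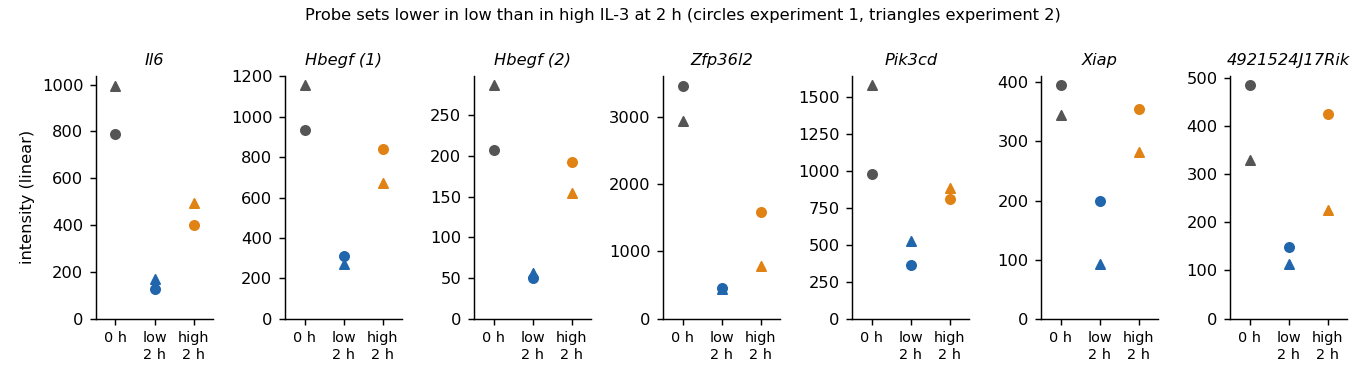
Intensity on a linear scale (y axis, from 0) at 0 h and, for low and then high IL-3, at 2 h for the 7 probe sets lower in low IL-3, with circles for experiment 1 and triangles for experiment 2. In each panel both low IL-3 points lie under both high IL-3 points, as for Il6 with 127 and 169 against 400.0 and 493. The probe sets were picked by this difference.

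The 2726 probe sets that fell kept a median of 55.1% of 0 h at 2 h and of 36.2% at 4 h in low IL-3. The change of the second 2 h was set against that of the first, both in low IL-3, and the 2 intervals share the 2 h arrays. For 348 probe sets (2.94%) of 277 genes the loss was faster in the first interval, with a median of 21.6% of 0 h left at 2 h and 17.7% at 4 h. For 30 (0.253%) it was faster in the second, with medians of 92.3% and 50.9%. These medians describe sets chosen by that difference, and 76 of the 348 also fell in the second 2 h. Of the 348, 143 had a 2 h signal under 100 in both experiments, where the range left to fall is small, and 43 had one of at least 200 in both.

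Myc was at 54.7 and 40.9 at 2 h and at 64.5 and 38.3 at 4 h, and its second change was 0.06 ± 0.19 SE after -4.32 in the first. Id1, with 94.4 and 160 at 2 h and 128 and 199 at 4 h, had a second change of 0.34 ± 0.14 SE after -3.01. Nfkbia, Mycn and Nrros also stayed near their 2 h signal, with Mycn at 147 and 152 and then 148 and 133, and Nrros at 231 and 327 and then 187 and 311. The difference between the intervals had an adjusted p of at most 2.04e-05 for these 5 genes. Mycn and Nrros were thus still above 100 when their loss levelled off. The part of the array's background in this was not tested.

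Among the 30 that were lost later, Denr, a translation reinitiation factor gene, was at 914 and 1042 at 0 h, 1036 and 1174 at 2 h and 444 and 530 at 4 h. Cks2, a cyclin-dependent kinase subunit gene, went from 4030 and 3783 to 2941 and 2320 and then to 1064 and 878.5, or 26.4% and 23.2% of 0 h. Acbd6, a lipid-binding protein gene, Ppp2ca, the catalytic subunit gene of protein phosphatase 2A, and Mrpl35, a mitochondrial ribosomal protein gene, kept 71.4% to 110% at 2 h and 31.3% to 42.9% at 4 h. All 5 had more signal at 2 h than at 4 h in both experiments. This is no further support, since the 5 genes were picked by a difference that uses these same arrays. Their calls were lost without the 2 h array of experiment 2 (adjusted p = 0.075, 0.062, 0.14, 0.11 and 0.19 in the order named), those of the last 4 also without the 2 h array of experiment 1 (0.17, 0.16, 0.52 and 0.265), and that of Mrpl35 also without the 4 h array of experiment 2 (0.083). The counts of 348 and 30 were 78 and 2 without the 2 h array of experiment 2, 222 and 7 without that of experiment 1, 162 and 10 without the 4 h array of experiment 2, and 0 and 0 in a fit without the pairing. The count of 30 was also 14 without the 4 h array of experiment 1 and 18 without the 0 h array of experiment 1.

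**Figure D5:**
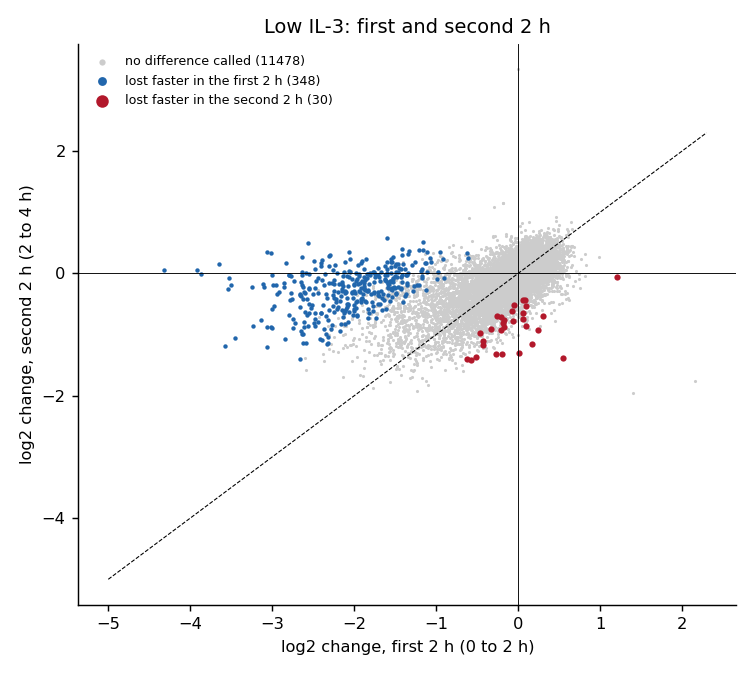
Log2 change of the first 2 h (x axis) and of the second 2 h (y axis) in low IL-3, 1 point per probe set, blue for the 348 lost faster in the first 2 h, red for the 30 lost faster in the second and grey for the others, with a dashed line of equal change. The blue points lie above the dashed line and reach to -4.32 on the x axis, and the red points lie below the dashed line, most of them near 0 on the x axis.

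Genes with several probe sets gave a view of how far 1 probe set stands for a gene. Of 2680 genes with more than 1 tested probe set, 839 had at least 1 that fell, and in 450 of these at least 2 did. In 341 every probe set fell. In 5 genes, Gna13, Jmy, Mbp, Nip7 and Rsrp1, 1 probe set fell while another rose. These 5 are named because they are the whole count, after their values were seen.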

How the data were processed

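The intensity values, deposited by the authors, are linear and come from dChip, which normalized all 10 1-colour arrays together; no dChip version was found. Such scaling can remove a loss shared by most transcripts. Probe set names follow the platform annotation, updated through RefSeq, and sets with several genes stayed unnamed. The members and lists were chosen with earlier results of these data known.

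A model of all 5 groups, blocked by experiment, was fitted with limma 3.58.1 (R 4.3.3) to log2(intensity + 16) of the 11856 probe sets averaging at least 50, with a variance trend and Benjamini-Hochberg adjustment at 0.05. This scale understates changes of dim probe sets. Each culture was divided after actinomycin D, and deviations within an experiment correlated at 0.762 to 0.887. Apparent half-lives assume exponential decay between both points. Code was tested on simulated data. The text names the 15 largest falls and 6 largest rises, per list up to 4 members with the smallest p and 2 in the other direction, called or not, 5 genes per direction of each test of a difference, the blot transcripts, Hbegf and Gapdh, with a few others added after their values were seen.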

Additional observations from a re-analysis of the deposited data

Results flagged for a closer look

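Differences between doses or between intervals are given here as values with no explanation. At 2 h, 7 probe sets differed between low and high IL-3 by a test of the difference itself. The log2 differences, low minus high, were -1.50 for Il6, -1.34 and -1.45 for the 2 probe sets of Hbegf, -1.29 for Zfp36l2, -0.94 for Pik3cd, -1.12 for Xiap and -1.16 for 4921524J17Rik.

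Between the intervals, 348 probe sets were lost faster in the first and 30 faster in the second 2 h. The log2 change of the second 2 h minus that of the first was 4.37 for Myc, 3.97 for Nfkbia, 3.44 for Mycn, 3.35 for Id1 and 2.94 for Nrros. It was -1.33 for Denr, -1.31 for Acbd6, -1.04 for Mrpl35, -0.84 for Cks2 and -0.69 for Ppp2ca.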

How the results depend on the processing

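With no replicate block, the counts were 338 lower and 0 higher at 2 h, 0 and 0 between the doses, and 0 and 0 between the intervals. With only the 4 arrays of the comparison, 3531 fell and 607 rose. With no filter on signal, 104 rose, 2 were lower in low than in high IL-3, 204 were lost faster in the first and 9 in the second 2 h, and 1433 were at or below 50% in both experiments. With a filter at 200 these were 109, 105 and 17 for rises and both intervals, 1650 for falls and 358 at or below 50%. Scaling to the 75th percentile gave 1774 falls, 4262 rises, 2 between the doses and 562 at or below 50%, and quantile normalization 2675 rises, 2 between the doses, 216 faster in the first 2 h and 594 at or below 50%. With Gapdh scaling 16 were lower and 2 higher in low than in high IL-3. With no variance trend 1 was lower between the doses and 4 were lost faster in the second 2 h. Leaving out 1 array at a time gave 1613 to 2849 falls, 12 to 292 rises, 2 to 222 lower and 0 to 14 higher in low than in high IL-3, 78 to 385 faster in the first and 2 to 44 in the second 2 h. The fewest falls and rises came without the 2 h low array of experiment 2. The log2 change of Gapdh was -0.0044 with ribosomal protein scaling and -0.027 to 0.040 on leaving out 1 array at a time, with -0.019 without the 0 h array of experiment 1. Scaling to the 75th percentile turned the log2 change of Uqcrfs1 to 0.045, Psma2 0.055, Hk1 0.070, Pkm 0.233, Ngp 0.236, Cpa3 0.226, Adgre1 0.247, Tfrc 0.154, Itga2b 0.210, Gata1 0.137, Rps28 0.197, Rps29 0.239, Ndufs1 0.0046, Ndufs7 0.057 and Ndufb3 0.182, and quantile normalization that of Pkm to 0.0037, Ngp 0.256, Cpa3 0.140, Adgre1 0.027, Itga2b 0.039 and Gata1 0.121. Of other uncalled genes the sign also varied on leaving out 1 array, with -0.207 to 0.358 for Fosl2, -0.0030 to 0.133 for Nr4a2, -0.0093 to 0.076 for Elavl1, -0.160 to 0.218 for Etv5, -0.194 to 0.323 for Il2ra, -0.065 to 0.666 for Runx1, -0.056 to 0.235 for Cdc25b, -0.022 to 0.220 for Atf5, -0.055 to 0.360 for Rrp12, -0.135 to 0.035 for Pkm, -0.015 to 0.328 for Aldoa, -0.041 to 0.0047 for Ngp, -0.115 to 0.431 for S100a8, -0.136 to 0.028 for Cpa3 and -0.204 to 0.271 for Csf1r. The cause of these shifts was not tested.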
